A study of Mus musculus with 12 samples.

Results

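The genes described here are 43 proliferation and DNA replication genes, chosen by name for their known roles in the cell cycle. Of them, 42 had a row in the count table of renal tubular epithelial cells (TECs), which lists 50433 genes, and the same 42 had a row in the table of blood neutrophils (PMNs), which lists 50434 genes. Pola1 was not analysed here. They fall into a list of 16 S phase genes, a list of 21 genes of mitosis and the steps that lead to it, and 6 regulators and other genes.

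The mice were wild-type male C57BL/6J animals, 8 to 12 weeks old, and every mouse underwent ischemia-reperfusion injury (IRI), in which the vessels of both kidneys are clamped for a time and then released, so that no uninjured library was compared. After reperfusion, mice received glutamine or vehicle (physiologic saline) intravenously. The sources give more than 1 time for the injection. Cells were collected 24 hours after IRI, with TECs sorted from kidney tissue as CD45- Prominin-1+ cells and PMNs taken from blood. The 4 groups held 3 libraries each. TEC vehicle libraries are labelled replicates 3, 4 and 5 and TEC glutamine libraries replicates 1, 2 and 3, and values are given in this order; PMN libraries are numbered 1 to 3 in each group. The study speaks of 3 TEC samples per group as those of treated mice, but its methods do not say whether 1 library was 1 mouse, in TECs or in PMNs. Where it was not, p-values measure only a spread between samples that may be technical.

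Before a cell divides it copies its DNA in S phase and then parts the copies in mitosis. Entry into S phase is driven by cyclin D and cyclin E kinases, which release the E2F transcription factors from the retinoblastoma proteins; the MCM helicase is loaded on DNA before replication begins, and PCNA clamps the polymerases to their template. The mitotic genes are switched on later in the cycle, largely through B-MYB and FOXM1. Tubular cells of the healthy kidney divide rarely, and survivors of an ischemic injury enter the cycle to replace lost neighbours. Mature neutrophils in blood have left the cycle, and their precursors divide in the bone marrow.

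The promoters of the 2 large lists hold different short sequence elements, which are shown because the comparison of S phase with mitotic genes follows this division of the cycle. RefSeq promoter windows of 300 bases (GRCm38.p6, 250 bases before to 50 after the start) were matched for 33 of the 42 genes. The letters searched on both strands were TTTCCCGC, TTTCGCGC, TTTGCCGC or TTTGGCGC for the E2F element, TTTGAA for the cell cycle homology region (CHR) and CCAAT for the CCAAT box. E2F letters were found in 6 of 12 S phase windows and in 1 of 18 mitotic windows, that of Cdk1, against 2.61% of all 27025 windows. CHR letters were found in 13 of 18 mitotic windows and in 1 of 12 S phase windows, that of Mcm2, against 20.2% of all windows. The CCAAT box was found in 8 of 12 S phase and 16 of 18 mitotic windows, against 41.1% of all windows. The shared elements were searched because these gene classes are known for them, and a match is a description of letters and not of binding. Of the windows, 4 that hold E2F or CHR letters, chosen after the matches were seen, are printed from 250 bases before to 25 after the start, with capitals on those letters. In Mcm6, TTTGGCGC and the reverse complement of TTTCGCGC overlap within the first run of capitals. Top2a holds TTTGAA once on each strand.
Mcm6 promoter, chr1:128359681-128359955, minus strand: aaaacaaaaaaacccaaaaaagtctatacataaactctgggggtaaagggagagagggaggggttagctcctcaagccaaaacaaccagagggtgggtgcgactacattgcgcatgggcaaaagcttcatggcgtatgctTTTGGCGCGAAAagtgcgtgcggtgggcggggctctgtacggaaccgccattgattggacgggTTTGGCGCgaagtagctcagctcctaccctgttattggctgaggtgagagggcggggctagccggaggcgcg
Cdk1 promoter, chr10:69352888-69353162, minus strand: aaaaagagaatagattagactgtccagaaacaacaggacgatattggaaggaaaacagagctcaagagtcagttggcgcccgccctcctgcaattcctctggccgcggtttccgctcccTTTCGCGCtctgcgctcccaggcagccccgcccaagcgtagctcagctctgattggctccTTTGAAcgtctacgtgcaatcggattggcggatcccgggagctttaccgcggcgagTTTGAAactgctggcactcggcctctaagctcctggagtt
Kif23 promoter, chr9:61946775-61947049, minus strand: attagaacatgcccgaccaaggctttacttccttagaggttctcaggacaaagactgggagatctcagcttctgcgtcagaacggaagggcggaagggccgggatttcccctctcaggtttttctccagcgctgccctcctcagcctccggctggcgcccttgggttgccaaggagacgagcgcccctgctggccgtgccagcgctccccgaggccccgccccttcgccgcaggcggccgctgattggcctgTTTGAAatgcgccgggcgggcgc
Top2a promoter, chr11:99024165-99024439, minus strand: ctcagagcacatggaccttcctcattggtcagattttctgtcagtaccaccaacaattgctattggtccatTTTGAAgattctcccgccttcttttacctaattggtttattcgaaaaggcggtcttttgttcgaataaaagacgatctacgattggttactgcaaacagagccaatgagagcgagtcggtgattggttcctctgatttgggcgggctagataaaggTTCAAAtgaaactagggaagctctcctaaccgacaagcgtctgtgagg

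Libraries differed in depth and make-up. TEC libraries held 5397370 to 10223461 counts, with glutamine replicate 2 the shallowest, and PMN libraries held 20225246 to 21878446. The 100 most abundant genes took 36.7% to 39.6% of the counts in TEC vehicle libraries and 43.9% to 44.4% in TEC glutamine libraries, so that the groups did not overlap in this share. Values are given as CPM, counts scaled to a common library size by edgeR's TMM method, and a count of 0 in 1 library allows up to 3 counts, that is 0.269 to 0.603 CPM in TECs and 0.137 to 0.158 CPM in PMNs; such limits cover counting error only. TECs held the marker of their gate, Prom1, at 70.4 ± 5.96 CPM under vehicle and 80.2 ± 4.56 CPM under glutamine (SD, n = 3). All 9 neutrophil markers had a row in the PMN table and together reached 23971 to 72611 CPM. The lowest sum was that of glutamine replicate 3, in which the macrophage and dendritic cell markers summed higher, to 25911 CPM; in the other 5 PMN libraries the neutrophil sum was the higher.

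In TECs no proliferation gene differed between glutamine and vehicle after adjustment over all genes. Stmn1, a regulator of microtubules, and Mcm6, a helicase subunit, had the lowest unadjusted p-values of the list and lower levels under glutamine, followed by Kif23, a motor of cytokinesis, with higher levels. Of the 42 genes, 32 passed edgeR's expression filter in TECs, and 0 had an adjusted p-value below 0.05, against 0% of all 14734 genes tested. Their smallest adjusted p-value was 0.240. Unadjusted p-values were below 0.05 for 4 lower genes (Mcm6, Stmn1, Ccna2 and Pcna), which is 12.5% of the 32 against 5.58% of all genes tested, and for 2 higher genes (Kif23 and Rrm1), which is 6.25% against 7.32%. Glutamine libraries all lay below vehicle libraries for 5 of the 32 genes (15.6%, against 9.81% of all genes tested), and all above them for 3 (9.38%, against 9.01%). The higher share is that of the background, and the lower share rests on 5 genes. DESeq2's Wald test gave an adjusted p-value to 23 of the 42 genes, of which 0 were below 0.05, against 1.93% of the 12738 genes given one. In bulk samples, fewer cells of a type and less RNA per cell cannot be told apart.

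The 10 genes that did not pass the filter were Ccne1 and Cdc6 of the S phase list and Ccnb2, Bub1, Bub1b, Aurka, Aurkb, Plk1, Tpx2 and Cenpe of the mitotic list. Their counts ran from 0 to 35 per library. Bub1b, a spindle checkpoint kinase, had 0, 0 and 1 counts under vehicle and 4, 7 and 2 under glutamine. It was the only one of the 10 whose groups did not overlap, and it was too low for the test.

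**Figure D1:**
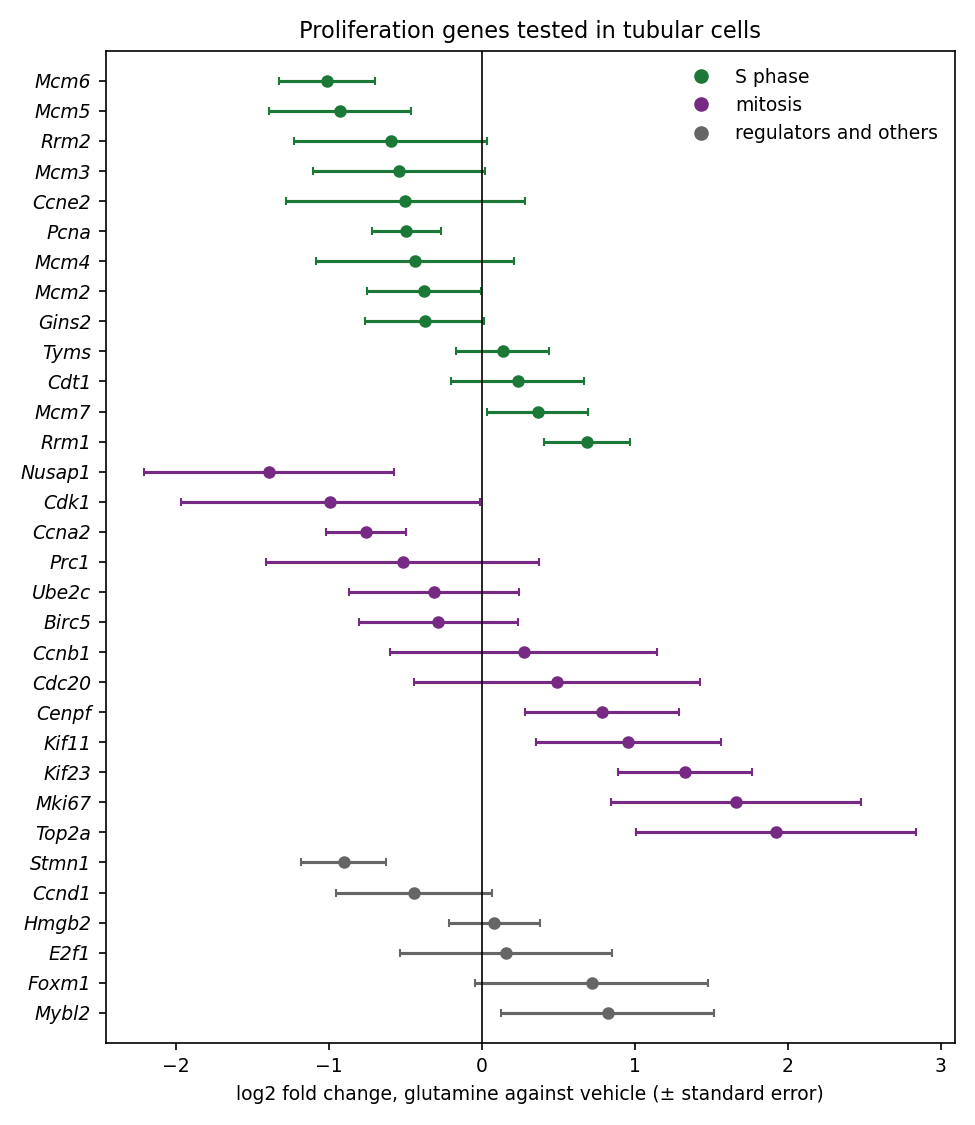
Log2 fold change of glutamine against vehicle in TECs for the 32 proliferation genes that passed the expression filter, with bars of 1 standard error from edgeR's quasi-likelihood test, 3 libraries per group. Among S phase genes 9 of 13 lie left of 0 and among mitotic genes 7 of 13 lie right of it, and no gene had an adjusted p-value below 0.05.

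Among the S phase genes, 9 of the 13 tested had a negative log2 fold change and 4 a positive one, with a median of -0.44, against a median of 0.01 over all genes tested. Within the helicase, 5 of the 6 subunits (Mcm2 to Mcm6) were on the lower side and Mcm7 was not. Mcm6 (chromosome 1, 128331590 to 128359664, GRCm38), whose promoter with 2 stretches of E2F letters is printed above, had 27.6, 17.3 and 16.2 CPM in the vehicle libraries and 9.13, 10.8 and 10.3 CPM in the glutamine libraries. Every glutamine library lay below every vehicle library. The log2 fold change was -1.01 (standard error, SE, 0.31; adjusted p = 0.240).

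Mcm2 (chromosome 6, 88883474 to 88898780), which helps to form the ring of the same helicase, had 7.79, 6.63 and 8.05 CPM under vehicle and 5.29, 5.62 and 6.36 CPM under glutamine. Its groups did not overlap either, but the log2 fold change of -0.38 was about the size of its standard error of 0.37 (adjusted p = 0.697). Mcm7, which completes the ring, had 20.7, 9.67 and 14.98 CPM under vehicle and 18.9, 16.3 and 23.1 CPM under glutamine. These groups overlapped, with a log2 fold change of 0.37 (SE 0.33, adjusted p = 0.672). Mcm7 shares its locus with Ap4m1 and Cops6 on the opposite strand and with 3 miRNA genes of its own strand, and the sources do not say whether counting used the strand. The other 3 subunits had log2 fold changes from -0.93 to -0.44, and of these the groups did not overlap in Mcm5. Summed over Mcm2 to Mcm7, the vehicle libraries held 73.9, 47.5 and 51.5 CPM and the glutamine libraries 39.9, 43.0 and 50.2 CPM. Glutamine replicate 3 lay between vehicle replicates 4 and 5, so that the sums overlapped.

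Pcna (chromosome 2, 132249162 to 132253314), the sliding clamp, was the most abundant S phase gene at 21.0 CPM per kilobase of merged exons. It had 62.7, 64.0 and 50.3 CPM under vehicle and 37.1, 37.8 and 50.8 CPM under glutamine. The groups overlapped, since glutamine replicate 3 was just above vehicle replicate 5. Its log2 fold change was -0.49 (SE 0.22, adjusted p = 0.387), and the unadjusted p of 0.04997 sat at the threshold, below which it stayed in 4 of 15 alternative settings. Rrm1 (chromosome 7, 102441695 to 102469771), the large subunit of ribonucleotide reductase, went the other way, with 15.8, 17.9 and 14.3 CPM under vehicle and 26.2, 18.7 and 32.1 CPM under glutamine. All its glutamine values were above all vehicle values, at a log2 fold change of 0.69 (SE 0.28, adjusted p = 0.347). Rrm2, the small subunit of the same enzyme, had a log2 fold change of -0.60 with a standard error of 0.63, and its groups overlapped. A predicted gene overlaps Rrm1 on the same strand, and reads of the 2 could be split between them. Ccne2, Gins2, Cdt1 and Tyms had log2 fold changes from -0.50 to 0.23, each smaller than its standard error, and their groups overlapped.

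**Figure D2:**
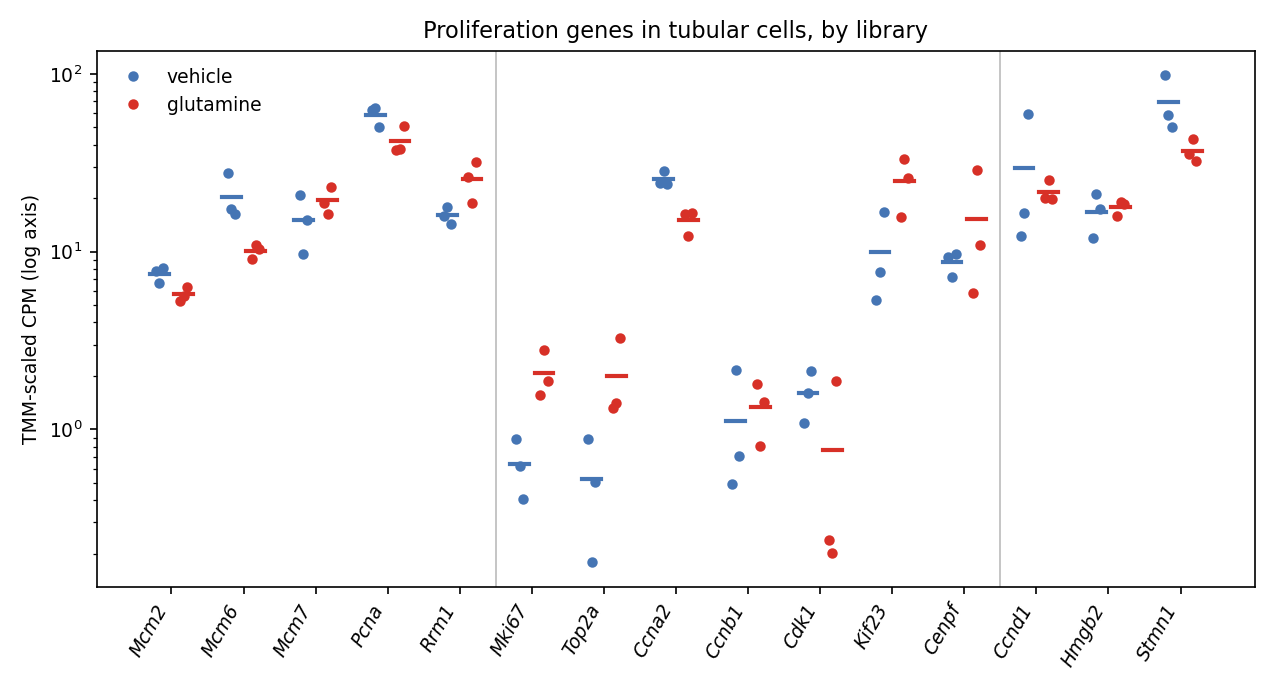
TMM-scaled CPM on a log axis in each TEC library for 15 proliferation genes, with points for libraries and bars for group means; grey lines part S phase genes, mitotic genes and the others. Points of the 2 groups do not overlap for Mcm2, Mcm6, Rrm1, Mki67, Top2a, Ccna2 and Stmn1.

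The mitotic genes split by direction, with 6 of the 13 tested below 0 and 7 above it, and a median log2 fold change of 0.27. That median held no firm direction, since it was -0.094 with limma-voom, -0.060 without glutamine replicate 2 and 0.0039 without vehicle replicate 3. The markers most used for dividing cells were near the limit of detection. Mki67 (chromosome 7, 135689784 to 135716361), the Ki-67 antigen, had 9, 7 and 4 counts under vehicle and 13, 14 and 17 under glutamine, or 0.888, 0.627 and 0.408 CPM against 1.56, 2.81 and 1.86 CPM. Its groups did not overlap, with a log2 fold change of 1.66 (SE 0.82, adjusted p = 0.422). Top2a (chromosome 11, 98992943 to 99024189), which untangles DNA before chromosomes part, had 9, 2 and 5 counts under vehicle and 11, 7 and 30 under glutamine. In CPM these groups did not overlap either (0.888, 0.179 and 0.510 against 1.32, 1.41 and 3.29), at a log2 fold change of 1.93 (SE 0.91, adjusted p = 0.406). Per kilobase of exons both stood at 0.14 CPM over all TEC libraries, among the lowest of the 42 genes.

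Kif23 (chromosome 9, 61915905 to 61946774), the motor of the central spindle whose promoter with CHR letters is printed above, was better covered, with 54 to 237 counts per library. It had 5.33, 7.70 and 16.7 CPM under vehicle and 15.7, 33.1 and 26.0 CPM under glutamine. Vehicle replicate 5 was above glutamine replicate 1, so that the groups overlapped. The log2 fold change was 1.33 (SE 0.44, adjusted p = 0.254). Without the expression filter, under which 29116 genes were tested, Kif23 and Stmn1 were the 2 genes of the 42 with adjusted p-values below 0.05 (0.0189 and 0.0350), against 1.37% of all genes in that setting. Over the 15 alternative settings the adjusted p ran from 0.0189 to 0.587 for Kif23 and from 0.0350 to 0.542 for Stmn1.

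Ccna2 (chromosome 3, 36564865 to 36572150), cyclin A2, acts in S phase and on to mitosis, and it was lower. It had 24.2, 28.3 and 24.0 CPM under vehicle and 16.3, 12.3 and 16.6 CPM under glutamine. The groups did not overlap, at a log2 fold change of -0.76 (SE 0.26, adjusted p = 0.279). Exosc9, an exosome subunit, overlaps it on the opposite strand. Cdk1 (chromosome 10, 69335146 to 69352938), the kinase that starts mitosis, had 11, 18 and 21 counts under vehicle and 2, 1 and 17 under glutamine. Glutamine replicate 3 stood among the vehicle libraries, and the log2 fold change of -0.99 (SE 0.98, adjusted p = 0.696) was -2.78 without it. Ccnb1, its cyclin partner, had 0.493, 2.15 and 0.713 CPM under vehicle and 1.80, 0.803 and 1.43 CPM under glutamine, which overlapped.

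Cenpf, a kinetochore protein, had 9.37, 7.17 and 9.68 CPM under vehicle and 5.89, 28.9 and 10.96 CPM under glutamine. Glutamine replicate 2, the shallowest library, held the high value. The log2 fold change of 0.79 (SE 0.50, adjusted p = 0.533) was -0.052 without that library. The other 6 tested mitotic genes, Kif11, Cdc20, Birc5, Ube2c, Prc1 and Nusap1, had log2 fold changes from -1.39 to 0.96, standard errors from 0.52 to 0.94 and groups that overlapped.

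Each library can be described by the mean log2 CPM of the S phase list less that of the mitotic list. This difference was 2.06, 1.94 and 1.69 in the vehicle libraries and 1.33, 1.07 and 1.72 in the glutamine libraries. Glutamine replicate 3 was just above vehicle replicate 5, and the other glutamine libraries were below every vehicle library. The mean was 1.90 ± 0.19 under vehicle and 1.37 ± 0.33 under glutamine (SD, n = 3), a difference of -0.53. It ran from -0.70 to -0.37 when each library was left out in turn, with -0.37 without glutamine replicate 2. That library had the lowest difference and the highest mitotic mean (1.20). It was also the highest of the 6 in the summed tubular markers, at 6391 CPM. The same held for the neutrophil, macrophage and dendritic cell, lymphocyte, stromal, and erythroid and platelet markers. These sums are given further on, and their part in the difference was not tested. The S phase mean was 2.58 log2 CPM in vehicle and 2.29 in glutamine libraries, where glutamine replicate 3 (2.51) was above vehicle replicate 4 (2.46). The mitotic mean was 0.69 and 0.92 log2 CPM. Only glutamine replicate 2 was above every vehicle library there, since glutamine replicates 1 and 3 (0.77 and 0.79) were below vehicle replicate 5 (0.93). These means cover 15 S phase and 21 mitotic genes, of which 13 in each list passed the filter. The difference is a description of lists chosen with results of these libraries known, and it was not tested.

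**Figure D3:**
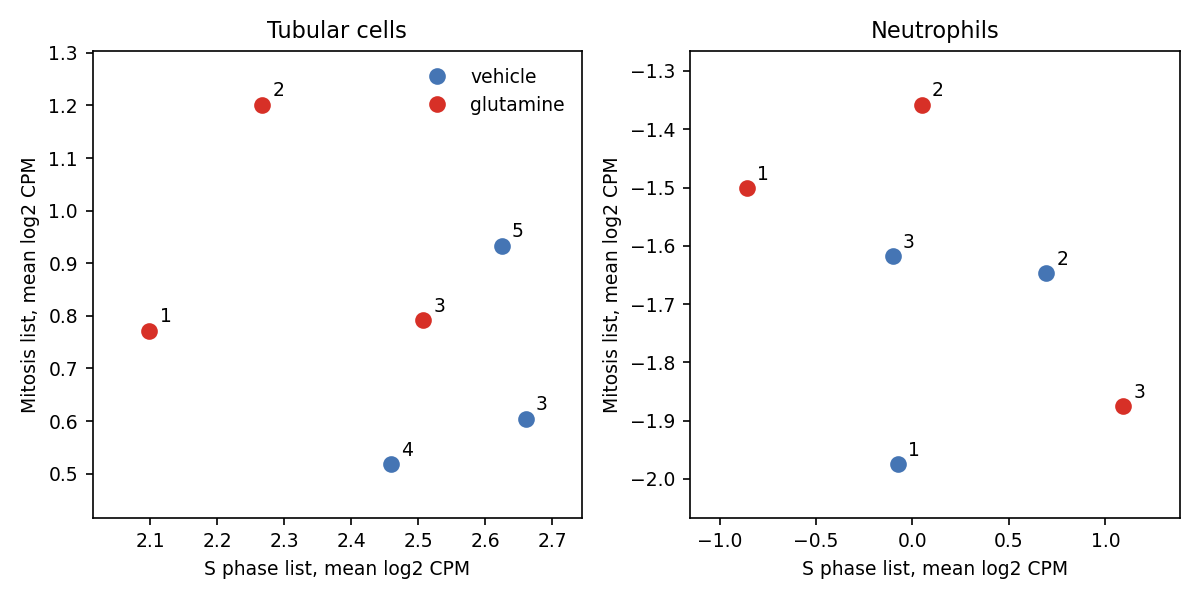
Mean log2 CPM of the mitotic list against that of the S phase list, 1 point per library labelled with its replicate number, in TECs (left) and PMNs (right) with separate axes. In TECs the vehicle libraries lie at S phase means of 2.46 to 2.66 and the glutamine libraries at 2.10 to 2.51; in PMNs the groups are mixed.

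Among the regulators and other genes, Stmn1 (chromosome 4, 134468320 to 134473843) was the most abundant of all 42 genes in TECs at 27.6 CPM per kilobase. It had 98.3, 58.8 and 49.9 CPM under vehicle and 35.6, 43.0 and 32.3 CPM under glutamine. No glutamine library reached the lowest vehicle library, and the log2 fold change was -0.90 (SE 0.28, adjusted p = 0.240). Mcm6 and Stmn1 kept an unadjusted p below 0.05 in each of the 15 alternative settings, and Kif23 in 14 of them. Ccnd1, cyclin D1, which couples growth signals to the cycle, had 12.2, 16.5 and 59.7 CPM under vehicle and 20.1, 25.3 and 19.7 CPM under glutamine. Vehicle replicate 5 set its mean, and its log2 fold change of -0.44 (SE 0.51, adjusted p = 0.743) was 0.59 without that library. Hmgb2, a chromatin protein, had 11.9, 21.0 and 17.4 CPM under vehicle and 15.9, 19.1 and 18.4 CPM under glutamine, which overlapped throughout. The transcription factors E2f1, Mybl2 and Foxm1 had log2 fold changes of 0.16, 0.82 and 0.72 with standard errors of 0.69, 0.70 and 0.76.

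Other genes of the cycle, taken from 4 lists of 98 genes, also gave no call. Of the 97 with a row, 77 were tested in TECs and 0 had an adjusted p-value below 0.05. Unadjusted p-values were below 0.05 for 5 lower genes (6.49% of the 77, against 5.58% of all genes tested) and 4 higher genes (5.19%, against 7.32%), where the pooled lists stand near the background; the 9 are E2f2, Tfdp1, Cdk2, Myc and E2f7 of the G1 list and Lig1, Chaf1a, Tk1 and Dbf4 of the replication list. The list of G1 cyclins, kinases and E2F factors had 11 of 14 tested genes on the lower side with a median log2 fold change of -0.48, and 4 of the 14 (28.6%) were lower with an unadjusted p below 0.05. Its most changed gene was E2f2, an activating E2F factor, with 36, 20 and 25 counts under vehicle and 1, 0 and 2 under glutamine. Every glutamine library lay below every vehicle library, and summed over the libraries the level was 19.5-fold higher with vehicle (95% exact binomial interval 6.43 to 96.3, counting error only; adjusted p = 0.202 in edgeR). Tfdp1, the partner of E2F factors, had 17.8, 19.1 and 11.7 CPM under vehicle and 8.17, 5.825 and 10.3 CPM under glutamine (log2 fold change -0.99, SE 0.35, adjusted p = 0.283), and the groups did not overlap. Cdk2, the kinase of cyclins E and A, and Myc, a growth regulator, had log2 fold changes of -0.70 and -0.72 with adjusted p-values of 0.387 and 0.386. E2f7, a repressing E2F factor, went the other way at 1.02 (SE 0.45, adjusted p = 0.376).

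Of 25 other replication genes tested, 18 were lower and 7 higher, with a median log2 fold change of -0.23. Other mitotic genes were higher in 13 of 22 cases, with a median of 0.10. Among all genes tested, 49.4% were lower. Unadjusted edgeR p-values were below 0.05 for 1 lower replication gene (4%, against 5.58% of all genes) and 3 higher ones (12%, against 7.32%). Lig1, the ligase that joins newly made DNA, had 24.6, 24.0 and 25.07 CPM under vehicle and 22.3, 10.2 and 7.35 CPM under glutamine, without overlap (log2 fold change -0.88, adjusted p = 0.371). Chaf1a, Tk1 and Dbf4 of the same list had positive log2 fold changes of 1.79, 0.96 and 0.99, with adjusted p-values from 0.363 to 0.387. No other mitotic gene was among those 9. Cell cycle inhibitors had 10 of 16 tested genes on the lower side. Cdkn1a, the p21 inhibitor of cyclin kinases, had 323, 436 and 831 CPM under vehicle and 492, 746 and 748 CPM under glutamine, and its groups overlapped (log2 fold change 0.32, SE 0.32, adjusted p = 0.695).

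Some markers of other cells differed in level between the TEC groups, but 0 of them had an adjusted p-value below 0.05. Ptprc, which encodes CD45 and should be absent from the gate, had 0.102 to 1.52 CPM under vehicle and 1.81 to 2.74 CPM under glutamine, without overlap. The 9 macrophage and dendritic cell markers, of which 8 passed the filter and 7 were higher with glutamine, summed to 39.3 to 84.5 CPM under vehicle and 66.4 to 140.0 CPM under glutamine. The 9 neutrophil markers summed to 103 to 246 CPM and 121 to 255 CPM, and of their precursors' markers Elane, Prtn3 and Ctsg were at 0 in every library. The sums of the 10 lymphocyte markers were 10.5 to 23.6 CPM and 14.8 to 27.3 CPM, with Nkg7 at 0 in every library. Endothelial markers (7 genes) summed to 366 to 581 CPM and 351 to 492 CPM, stromal markers (6 genes) to 11.7 to 14.9 CPM and 12.5 to 28.3 CPM, and erythroid and platelet markers (8 genes) to 809 to 4422 CPM and 987 to 6732 CPM. The 11 tubular markers summed to 4288 to 5465 CPM and 4937 to 6391 CPM, and 8 of them were higher with glutamine. Of the 11, 3 had an unadjusted p below 0.05 in edgeR, against 12.9% of all genes tested, and 0 had an adjusted p-value below 0.05. Havcr1, which encodes kidney injury molecule 1, was among those of the 11 that were lower with glutamine. It had 480 ± 347 CPM under vehicle and 56.6 ± 34.5 CPM under glutamine (SD, n = 3). The part of these cells, and of tubular injury, in the proliferation genes was not tested.

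In PMNs the same genes were present only in part, and no difference between the groups could be shown. Of the 42 genes, 15 passed the expression filter, 0 had an adjusted p-value below 0.05 (0% of all 10130 genes tested) and 0 had an unadjusted p below 0.05, where 1.28% of all genes tested were lower and 2.04% higher. The smallest adjusted p-value of the 15 was 0.99996. DESeq2's Wald test gave an adjusted p-value to 16 of the 42, of which 0 were below 0.05, against 2.8% of the 11035 genes given one. Of the 15, 0 had groups that did not overlap, against 4.63% lower and 5.87% higher of all genes tested. Among the 27 others, Ccnb1 was lower and Birc5, an inhibitor of apoptosis that also acts in mitosis, higher without overlap. Ccnb1 had 4, 1 and 6 counts under vehicle and 0 in each glutamine library, and Birc5 had 0, 1 and 1 counts under vehicle and 388, 3 and 6 under glutamine.

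Presence varied between libraries of 1 group. Of the 42 genes, 30 reached 100 counts in at least 1 PMN library, and 22 of these (73.3%) were at 0 in another, against 49.9% of the 11909 genes of the whole PMN table that reached 100 counts. In TECs this was so for 0 of 14 such proliferation genes and for 0.40% of 9766 genes. Mcm3 had 1857 counts in glutamine replicate 1 and 0 in the other 5 libraries. Tpx2, a spindle assembly factor, had 925 counts in vehicle replicate 2 and 0 elsewhere, and Aurkb, a mitotic kinase, had 759 and 61 in glutamine replicates 1 and 2 and 0 elsewhere. Mcm6 had 71 counts in vehicle replicate 1, 1058 in glutamine replicate 3 and 0 in the others. The table holds 2 columns per library, and for the 67 values of at least 100 counts these differed by at most 1.21-fold, so that the gaps lay between libraries and not between columns.

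**Figure D4:**
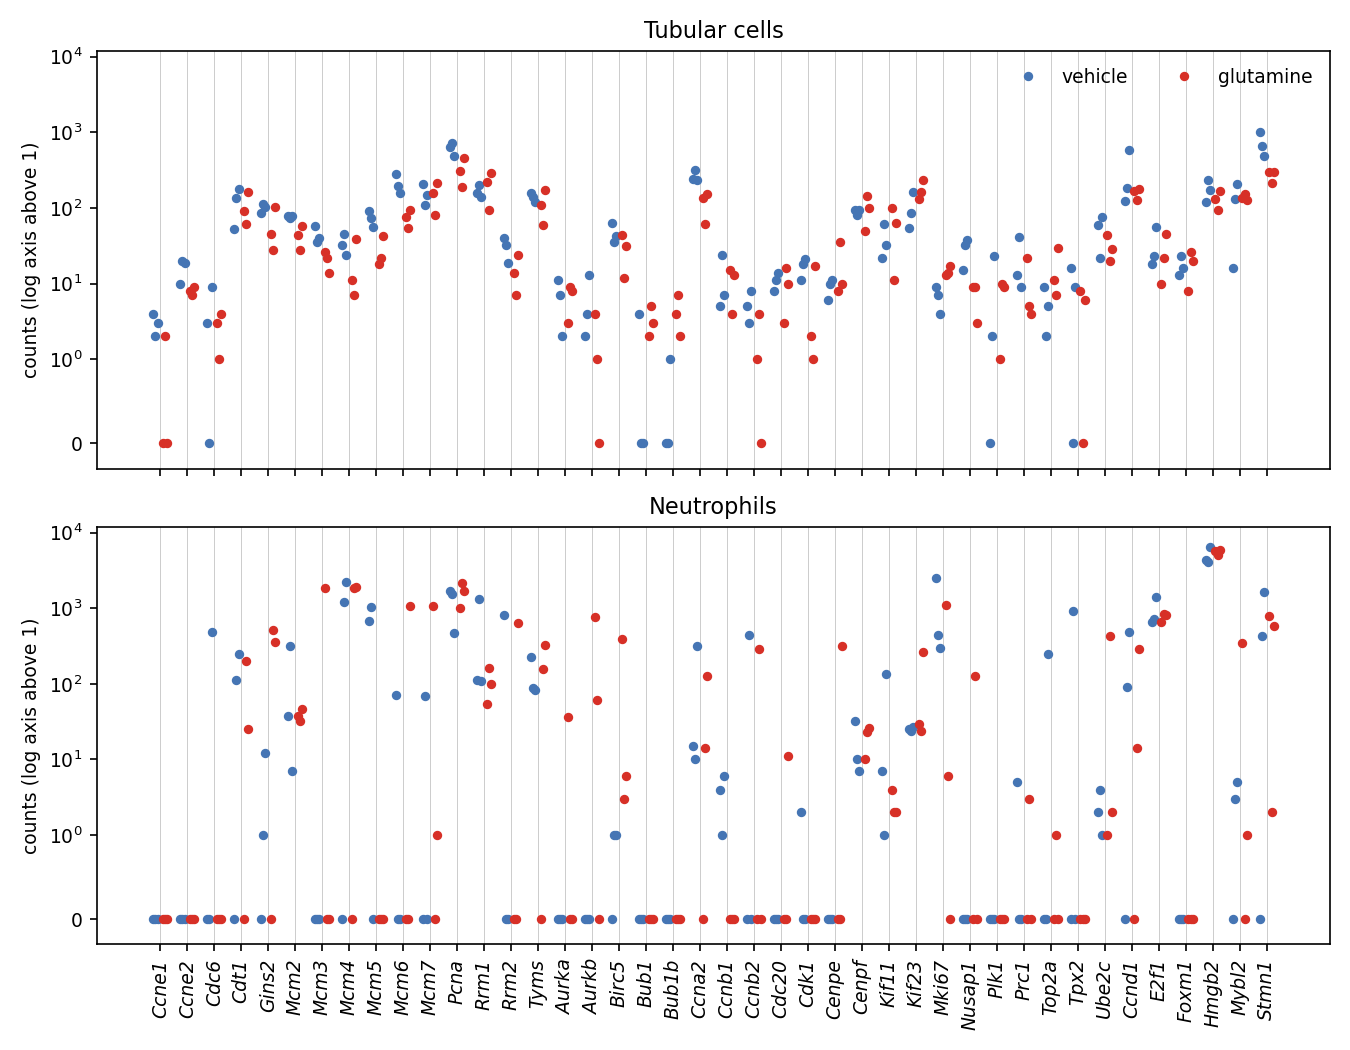
Counts of the 42 proliferation genes in each TEC library (top) and each PMN library (bottom), on an axis that is linear from 0 to 1 and logarithmic above, with genes in the same order in both panels. In PMNs 22 genes reach 100 counts in some library and stand at 0 in another, and in TECs no such gene is seen.

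Pcna, Mcm2 and Rrm1 were the S phase genes with counts in every PMN library. Pcna had 84.8, 71.1 and 22.6 CPM under vehicle and 52.1, 102 and 84.7 CPM under glutamine, which overlapped (log2 fold change 0.42, SE 0.74). Mcm2 had 1.90, 14.5 and 0.333 CPM under vehicle and 1.95, 1.51 and 2.31 CPM under glutamine, and vehicle replicate 2 held the high value. Its log2 fold change of -1.54 (SE 1.46) was 0.77 without that library. Mcm4 had 0, 54.9 and 105 CPM under vehicle and 0, 87.5 and 95.3 CPM under glutamine, so that each group held 1 library at 0. Ccne1, Ccne2, Bub1, Bub1b, Plk1 and Foxm1 were at 0 in all 6 libraries.

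Of the mitotic genes in PMNs, Mki67 had 126, 20.1 and 14.1 CPM under vehicle and 58.3, 0.283 and 0 CPM under glutamine. Vehicle replicate 1 and glutamine replicate 1 were the highest of their groups, which overlapped (log2 fold change -1.45, SE 2.52). Top2a had 248 counts in vehicle replicate 3 and 1 in glutamine replicate 2, and Cdk1 had 2 counts in vehicle replicate 1, with 0 in the other libraries for both. Stmn1 had 0, 19.4 and 76.7 CPM under vehicle and 41.4, 0.0943 and 29.1 CPM under glutamine. Ccnd1 had 0, 4.10 and 23.2 CPM under vehicle and 0, 0.660 and 14.5 CPM under glutamine. Neither gene gave a direction that held when single libraries were left out.

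Hmgb2 was the most abundant of the 42 genes in PMNs at 86.0 CPM per kilobase, followed by Pcna at 29.0, Mcm4 at 15.9, Stmn1 at 14.5 and E2f1 at 13.1. It had 217, 188 and 307 CPM under vehicle and 300.1, 239.6 and 298.5 CPM under glutamine, within 1 range (log2 fold change 0.24, SE 0.31). E2f1 had 33.3, 32.9 and 67.2 CPM under vehicle and 34.8, 39.4 and 40.6 CPM under glutamine, which also overlapped. The S phase less mitotic list mean was 1.90, 2.34 and 1.52 under vehicle and 0.64, 1.41 and 2.97 under glutamine. The glutamine libraries lay on both sides of the vehicle libraries, and the highest, glutamine replicate 3, is the library with more macrophage and dendritic cell than neutrophil marker CPM. Without it the glutamine less vehicle difference was -0.89, against -0.25 with all libraries. The 7 tested S phase genes had a median log2 fold change of 0.20 and the 4 tested mitotic genes one of -0.48, beside a median of 0.0002 over all genes tested. Neither direction was stable. The S phase median was -0.27 without glutamine replicate 3 and -0.17 with limma-voom, and the mitotic median, over 4 to 6 genes, ran from -0.37 to 0.91 when each library was left out, with 0.71 without vehicle replicate 1 and 0.91 without vehicle replicate 3. Neutrophil precursor markers, which are highest in the bone marrow, summed to 3017 to 5137 CPM under vehicle and 3717 to 5444 CPM under glutamine, and 2 of the 9 carried the sums. These were Chil3, at a mean of 3443 CPM under vehicle and 3760 CPM under glutamine, and Ngp, at 851 and 697 CPM. The other 7 (Mpo, Elane, Prtn3, Ctsg, Ms4a3, Ltf and Camp) had group means from 0 to 19.0 CPM, and each was at 0 in at least 1 library. Macrophage and dendritic cell markers summed to 11671 to 23067 CPM and 12144 to 25911 CPM. Lymphocyte markers summed to 0.902 to 20.6 CPM and 30.4 to 46.9 CPM, with Cd3e, Cd8a and Nkg7 at 0 in every library, and Ptprc had 317 to 569 CPM and 754 to 1151 CPM, both without overlap. Endothelial markers summed to 2210 CPM in vehicle replicate 2 and to 2.85 to 60.8 CPM in the other 5 libraries. Stromal markers were also highest there, at 104 CPM, against 0 in each glutamine library. Tubular markers summed to 1255 CPM in vehicle replicate 1, of which Umod gave 1025 CPM, and to 33.9 to 137 CPM in the others. The part of these cells in the proliferation genes was not tested.

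Of the 97 other cell cycle genes with a row, 43 were tested in PMNs and 0 had an adjusted p-value below 0.05. Unadjusted, 2 of the 43 (4.65%), both cell cycle inhibitors, were higher with glutamine and 0 were lower, against 2.04% higher and 1.28% lower of all genes tested. Btg2, an antiproliferative gene, had 1027, 943 and 854 CPM under vehicle and 1471, 1415 and 2092 CPM under glutamine (log2 fold change 0.82, SE 0.23, adjusted p = 0.955 in edgeR). Its groups did not overlap. Rbl2, the p130 pocket protein of resting cells, had 8.12, 47.9 and 31.0 CPM under vehicle and 158, 154 and 60.3 CPM under glutamine, without overlap (log2 fold change 2.10, SE 0.85). Cdkn1a had 731, 1192 and 785 CPM under vehicle and 767, 1007 and 659.7 CPM under glutamine, which overlapped, as did Ccnd3, the cyclin D of blood cells, at 249 to 468 CPM and 158 to 319 CPM.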

How the data were processed

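RNA of sorted cells was reverse transcribed from the polyA tail and sequenced to reads of 50 bases. Per the labels, the authors' processing notes name Trim Galore 0.6.4, FastQC, MultiQC, Salmon 1.0.0, DESeq2 and mm10; the annotation is not given in the sources used here. The deposited TEC table holds estimated counts per gene, which need not be whole and were rounded here. The deposited PMN table holds the same kind of estimated counts as resaved by a spreadsheet program; 3.20% of its cells carried extra points and 0.391% had become dates, and these were read back. Its 2 columns per library were averaged, since they correlated at 0.993 to 0.994 (Pearson's r across genes of log2 of the count plus 1) within a library and at 0.651 to 0.721 between libraries. No column was left unused (0 columns).

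Each cell type was fitted alone with edgeR 4.0.16 (R 4.3.3): filterByExpr, TMM, and the quasi-likelihood test with robust estimation, Benjamini-Hochberg adjusted over all tested genes, threshold 0.05. Standard errors were taken from the fold change and F. DESeq2 1.42.0, limma 3.58.1, other scalings and filters, and fits without each library were alternatives. Robust estimation, and running DESeq2 on all genes with a count, were set after values had been seen, to match an earlier analysis of these files; the non-robust fit and DESeq2 after the expression filter were added as alternatives. Genes and lists were chosen with earlier results of these data known. Of the 42 genes, values per library are given for those with an unadjusted p below 0.05 or past the adjusted threshold, the 3 highest of each list and 8 preset genes (Mki67, Top2a, Pcna, Ccnd1, Mcm2, Mcm6, Cdk1, Ccnb1). Genes of the other cell cycle lists could be named where the unadjusted p was below 0.05, beside Cdkn1a, Cdkn1b, Myc, Ccnd2 and Ccnd3, and other genes named singly were chosen after their values were seen. List means use log2 CPM with a prior count of 2. Positions and exon lengths are from GENCODE M21 (GRCm38). The fit was also run on simulated data with known changes, as a check of the code whose outcome is not given here. What size of change in these genes 3 libraries per group could show was not tested.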

Additional observations from a re-analysis of the deposited data

How the results depend on the processing

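In TECs 0 of the 42 genes passed the adjusted threshold under every alternative except the fit without the expression filter, where 2 did. Among all TEC genes the count was 0 in the main setting and 246 with DESeq2, 308 with DESeq2 after the expression filter, 398 without the filter, 38 without glutamine replicate 2 and 4 without vehicle replicate 5. The median log2 fold change in TECs was -0.30 over the 32 genes and -0.10 with limma-voom; that of the mitotic genes was 0.27 and -0.094 with limma-voom. When each library was left out, the medians ran from -0.20 to 0.056 over the tested genes, from -0.46 to -0.32 for S phase genes and from -0.060 to 0.58 for mitotic genes, 4 to 6 genes had an unadjusted p below 0.05 (11.4% to 17.1% of those tested, against 8.26% to 17.9% of all genes), and 11 to 15 of the 42 had groups that did not overlap, against 9 with all libraries (15 without vehicle replicate 5, 14 without glutamine replicate 2 or 3). Fewer libraries overlap less in any gene: of the 32 genes tested with all libraries, 8 became 10 to 13 (31.2% to 40.6%), and of all 14734 genes the share rose from 18.8% to between 24.7% and 37.6%. The unadjusted count was 5 in the non-robust fit, which lost Pcna. The direction turned in TECs when single libraries were left out, for Ccnb1 (-0.084 to 1.15, below 0 without vehicle replicate 3), Ccnd1 (-0.82 to 0.59), Cenpf (-0.052 to 1.18) and Hmgb2 (-0.12 to 0.27, below 0 without vehicle replicate 3). In PMNs the unadjusted count of 0 became 4 of 20 genes given a p by DESeq2 (7.87% of all such genes), 3 of 36 without the filter (3.75% of all genes), 1 of 5 where each library held 10 or more counts (5.14%) and 1 of 12 with DESeq2 after the expression filter (9.16%), and 0 to 1 without single libraries (3.67% to 4.44%). The last DESeq2 setting also gave 1 cell cycle inhibitor, Btg2, an adjusted p-value below 0.05, as it did 237 of all PMN genes (2.50% of those given one); DESeq2 on all genes called 309 PMN genes, and the other PMN settings called 0. The PMN median of S phase genes was -0.95 with at least 10 counts in every library, which left 2 genes, and that of mitotic genes was -0.22 with DESeq2, -0.69 with limma-voom, -0.14 without the filter and 2.07 with at least 10 counts, which left 1 gene. Without single libraries the PMN medians ran from -0.26 to 0.46 over the tested genes, from -0.27 to 0.43 for S phase and from -0.37 to 0.91 for mitotic genes, and the list difference from -0.89 to 0.27. Stmn1 in PMNs was 0.58 with limma-voom. Without single libraries the direction turned in PMNs for Mki67 (-8.49 to 0.17), Ccnd1 (-4.74 to 1.29), Mcm2 (-2.10 to 0.77), Mcm4 (-0.42 to 1.14), E2f1 (-0.42 to 0.20) and Stmn1 (-1.21 to 1.27). The causes were not tested. With 3 libraries per group and few counts, differences in Mki67, Top2a and the 10 untested TEC genes were at the limit of this depth. No paired analysis was possible because number 3 is the only one found in both groups of TECs, and the numbers of PMN libraries come from no label.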
